A study of Mus musculus with 4 samples.

Results

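Clade B serpins are the intracellular branch of the serpin superfamily of protease inhibitors, and the genes described here are every row of the deposited count table whose name begins with Serpinb and a digit. There were 27 such genes among 23420 gene rows, 12 on chromosome 1 and 15 on chromosome 13. The study sequenced RNA of keratinocytes from mouse line MK1 and mouse line MK2, each as 2 biological replicates, which gives 4 libraries and a single comparison, MK2 against MK1. Keratinocytes are the epithelial cells of the epidermis, and the series concerns the regulatory targets of p63, the transcription factor of stratified epithelia, in mouse and human. Both lines are labelled as keratinocytes, with no treatment, strain, sex, age or passage stated, and MK1 and MK2 each stand for 1 line only. The labels do not say whether replicates were grown apart, so the p-values measure the spread between these libraries, which may be technical.

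A serpin presents an exposed reactive centre loop to its target protease. When the protease cuts the loop, the serpin changes shape and traps the enzyme in an inactive complex, so each inhibitor molecule is spent once. Clade B members lack the usual secretion signal, act mainly in the cytosol and nucleus, and are thought to protect cells from proteases that leak from granules and lysosomes or arrive from immune cells. Mouse carries duplicated copies, marked by letters, of genes that are single in human, among them Serpinb1, Serpinb6 and Serpinb9. Several chromosome 1 members, including Serpinb3 copies, Serpinb7, Serpinb12 and Serpinb13, are known from stratified epithelia.

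Total counts per library ran from 25237391 to 30261111. Levels are given as CPM (read counts per 1e+06 counts of the library), with library sizes scaled by edgeR's TMM method. Changes are log2 fold changes, MK2 minus MK1, with standard errors (SE), from edgeR's quasi-likelihood test on 12479 genes, with Benjamini-Hochberg adjusted p called at 0.05. Of all tested genes, 54.6% were called, 25.9% higher and 28.6% lower in MK2, so a call by itself does not set a gene apart. All 7 keratinocyte markers (Krt5, Krt14, Trp63, Itga6, Cdh1, Perp and Sfn) were present in both lines, with summed levels from 18162 to 21473 CPM. Both MK1 libraries also held B cell transcripts: Cd79a was at 2.93 and 3.13 CPM in MK1 and at 0.119 and 0 CPM in MK2. Cd79b (2.34 and 2.64 CPM) and Ms4a1 (1.61 and 1.23 CPM) were found in MK1 and had 0 counts in MK2. In bulk RNA, fewer cells of a type and less RNA per cell cannot be told apart.

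Genes of the Serpinb6 and Serpinb9 groups carried the widest differences between the lines. Their coding sequences differ along their length, including near the 3′ end, the stretch that encodes the reactive centre loop. Their last 150 coding bases before the stop codon are shown to let the copies be compared. Sequences were assembled from the GENCODE M21 annotation of GRCm38 (mm10). Capitals mark bases that differ from, or have no partner in, Serpinb6a.
Serpinb6a: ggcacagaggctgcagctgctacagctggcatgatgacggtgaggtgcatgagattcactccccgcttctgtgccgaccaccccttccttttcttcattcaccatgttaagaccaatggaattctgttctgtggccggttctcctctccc
Serpinb6b: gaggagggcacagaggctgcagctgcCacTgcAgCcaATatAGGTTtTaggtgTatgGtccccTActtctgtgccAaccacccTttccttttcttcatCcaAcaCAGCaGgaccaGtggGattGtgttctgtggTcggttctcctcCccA
Serpinb6c: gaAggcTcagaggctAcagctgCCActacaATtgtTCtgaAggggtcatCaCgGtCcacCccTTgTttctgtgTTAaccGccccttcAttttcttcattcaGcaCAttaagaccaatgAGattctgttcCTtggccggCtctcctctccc
Of these bases, 31 in Serpinb6b and 32 in Serpinb6c differed from, or had no partner in, Serpinb6a, and 4 of those in Serpinb6c had no partner. Serpinb6a bases missing from a copy were neither marked nor counted, so the stretches shown need not start at the same place. The first and last 75 bases held 16 and 15 of them in Serpinb6b, and 21 and 11 in Serpinb6c. Over the whole coding sequence, Serpinb6c was 86.5% identical to Serpinb6b and 82.1% identical to Serpinb6a, and Serpinb6b was 81.2% identical to Serpinb6a.

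The Serpinb9 copies d, e, f and g were far closer to each other. The last 150 coding bases of e, f and g are shown in the same way, with capitals for differences from Serpinb9e.
Serpinb9e: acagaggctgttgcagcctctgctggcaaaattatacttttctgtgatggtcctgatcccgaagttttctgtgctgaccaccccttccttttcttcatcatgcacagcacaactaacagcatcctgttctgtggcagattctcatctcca
Serpinb9f: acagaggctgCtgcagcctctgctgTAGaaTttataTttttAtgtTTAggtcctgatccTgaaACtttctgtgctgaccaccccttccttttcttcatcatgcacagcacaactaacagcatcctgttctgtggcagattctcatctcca
Serpinb9g: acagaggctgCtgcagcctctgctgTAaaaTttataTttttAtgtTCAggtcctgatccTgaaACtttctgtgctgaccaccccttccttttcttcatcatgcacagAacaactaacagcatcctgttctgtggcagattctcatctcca
Serpinb9f and Serpinb9g each differed from Serpinb9e at 13 of these positions, 13 and 12 of them in the first 75 bases. Whole coding sequences were 98.7% identical between Serpinb9f and Serpinb9g and 95.3% between Serpinb9e and Serpinb9g. That of Serpinb9d was 94.8% identical to Serpinb9e, 94.3% to Serpinb9f and 94.5% to Serpinb9g. Over the last 150 coding bases Serpinb9d, not shown, differed from Serpinb9e at 15. Serpinb9 itself was nearest to Serpinb9b, at 85.3%.

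The likeness of these copies extended upstream of the genes. The 250 bases before the RefSeq gene start (RefSeq, GRCm38.p6) of Serpinb9d, Serpinb9e, Serpinb9f and Serpinb9g are shown because 2 of these copies were called lower together. Capitals mark the longest run of 41 bases found in all 4 windows.
Serpinb9d, chr13:33192705-33192954, plus strand: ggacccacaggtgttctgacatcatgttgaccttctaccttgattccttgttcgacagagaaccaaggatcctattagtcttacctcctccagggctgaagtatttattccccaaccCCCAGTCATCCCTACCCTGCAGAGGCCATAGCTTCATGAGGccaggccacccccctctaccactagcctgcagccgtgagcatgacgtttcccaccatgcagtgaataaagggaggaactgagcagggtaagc
Serpinb9e, chr13:33249358-33249607, plus strand: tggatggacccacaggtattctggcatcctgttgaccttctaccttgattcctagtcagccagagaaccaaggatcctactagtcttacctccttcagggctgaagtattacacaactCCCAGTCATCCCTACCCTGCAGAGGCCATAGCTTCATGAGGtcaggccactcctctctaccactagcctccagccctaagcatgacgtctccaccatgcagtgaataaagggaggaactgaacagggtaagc
Serpinb9f, chr13:33323827-33324076, plus strand: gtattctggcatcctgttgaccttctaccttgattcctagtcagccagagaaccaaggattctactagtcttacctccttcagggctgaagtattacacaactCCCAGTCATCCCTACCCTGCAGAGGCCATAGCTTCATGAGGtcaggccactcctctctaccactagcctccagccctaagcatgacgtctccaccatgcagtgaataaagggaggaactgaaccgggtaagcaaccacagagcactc
Serpinb9g, chr13:33484540-33484789, plus strand: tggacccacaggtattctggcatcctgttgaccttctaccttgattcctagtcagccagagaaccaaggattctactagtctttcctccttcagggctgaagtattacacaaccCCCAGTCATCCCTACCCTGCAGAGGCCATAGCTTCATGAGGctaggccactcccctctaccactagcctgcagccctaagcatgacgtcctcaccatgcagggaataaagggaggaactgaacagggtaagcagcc
Identity between windows was 92.9% for Serpinb9e with Serpinb9g, 87.9% for Serpinb9e with Serpinb9f, and 80.4% for the least alike pair, Serpinb9d with Serpinb9f. The Serpinb9c window shared 55.7% to 62.8% of its bases with them, and those of Serpinb9 and Serpinb9b were 56.2% identical. For scale, the windows of Serpinb5 and Serpinb9e were 46.3% identical.

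On chromosome 1 the upstream windows of Serpinb5, Serpinb2, Serpinb10 and Serpinb8 were 42.1% to 47.2% identical to each other, whereas those of the copies Serpinb3a, Serpinb3b and Serpinb3c were 71.5% to 88.1% identical. A short motif occurred in many of the chromosome 1 windows. RefSeq windows of 300 bases (250 before to 50 after the start) were found for 25 of the 27 members, 11 on chromosome 1 and 14 on chromosome 13. The pattern TGANTCA takes in TGAGTCA, a binding motif of the AP-1 factors that act widely in epidermis, but allows any base at N. Read on both strands, it occurred in 7 of 11 chromosome 1 windows and in 0 of 14 chromosome 13 windows, against 7.81% of 32851 windows. The 4 chromosome 1 members expressed here all held the looser pattern. The match shown is TGAATCA in Serpinb5, Serpinb2 and Serpinb10, and TGAGTCA in Serpinb8 alone. Matches are shown in capitals with flanking bases.
Serpinb5, chr1:106861008-106861068, plus strand: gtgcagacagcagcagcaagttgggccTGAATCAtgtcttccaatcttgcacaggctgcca
Serpinb2, chr1:107511302-107511362, plus strand: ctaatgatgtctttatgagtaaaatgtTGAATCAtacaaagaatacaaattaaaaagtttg
Serpinb10, chr1:107528922-107528982, plus strand: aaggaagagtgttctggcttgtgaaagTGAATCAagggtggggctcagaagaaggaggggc
Serpinb8, chr1:107589956-107590005, plus strand: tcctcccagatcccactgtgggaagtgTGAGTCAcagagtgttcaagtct
The match began 140 bases before the RefSeq start in Serpinb5, 94 in Serpinb2, 54 in Serpinb10 and 23 in Serpinb8, whose window held 2 matches. The other matches were in Serpinb7, Serpinb11 and Serpinb12, each with at most 5 counts over all libraries together. TATAAA, on both strands, was in 7 of 11 chromosome 1 and 2 of 14 chromosome 13 windows, against 13.6% of all. The chromosome 1 matches included the copies Serpinb3a, Serpinb3b, Serpinb3c and Serpinb3d, and Serpinb2 alone of the members expressed here. The p53-family half-site was in 0 of 25 member windows, against 8.36% of all. Motifs were counted separately whether or not they overlapped, and a match of letters is not a bound site.

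Expressed and silent members divided in both clusters. Of the 27 genes, 14 reached 1 CPM in a line, and the same 14 passed edgeR's low-count filter, 4 on chromosome 1 and 10 on chromosome 13. The members that passed included Serpinb6c through MK2 only and Serpinb9c, Serpinb9e and Serpinb9f mainly through MK1, so counts over the tested genes describe them and support nothing further. There were 3 members called higher and 6 called lower in MK2, and 5 were not called (64.3% called, beside 54.6% of all tested genes). Beyond 2-fold, tested with glmTreat, 1 was higher and 3 were lower, against 3.25% and 10.1% of tested genes. The replicates of the 2 lines did not overlap for 11 of the 14, beside 80.5% of all tested genes.

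**Figure D1:**
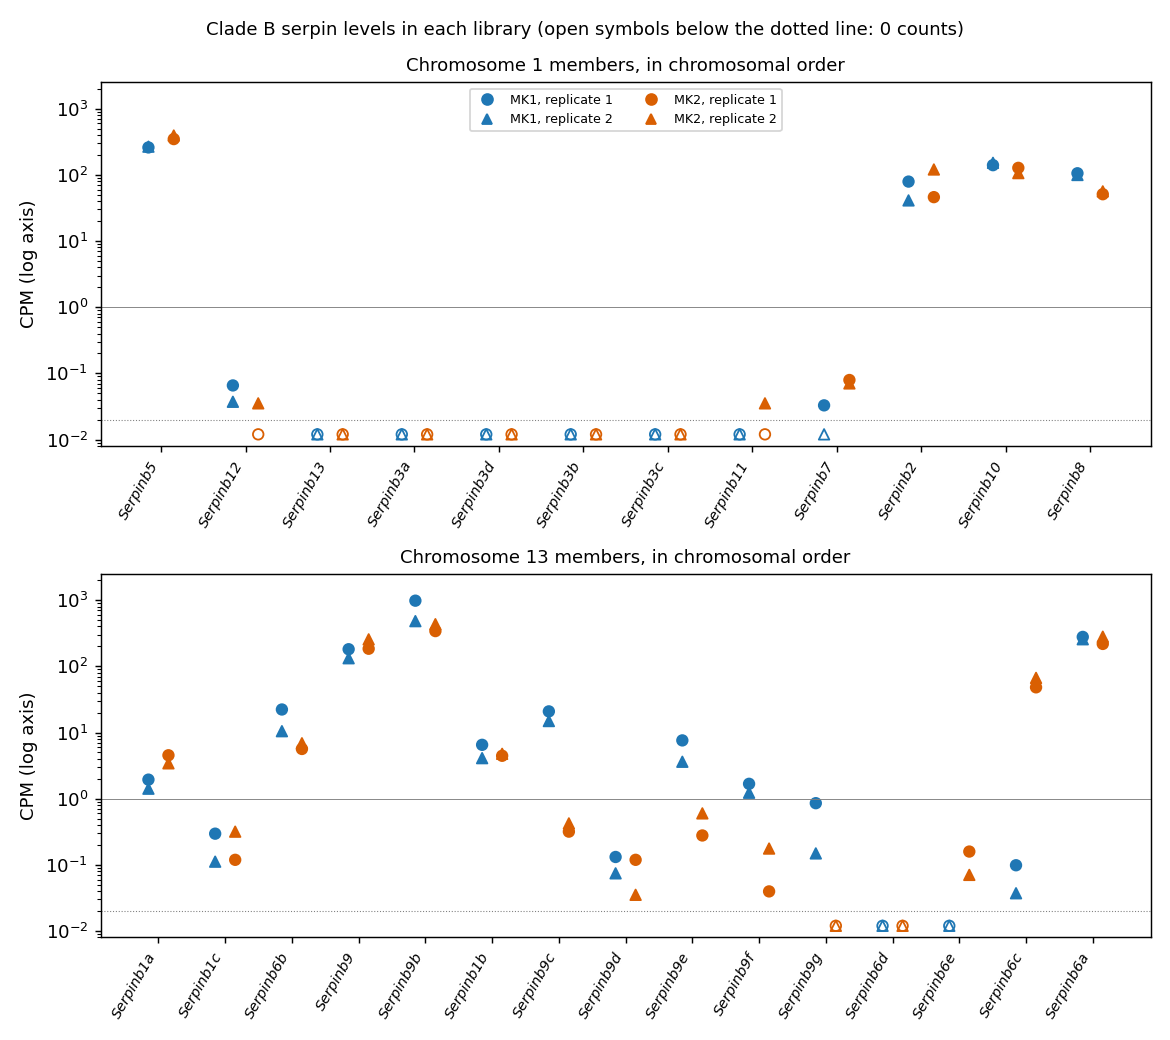
Level of each of the 27 clade B serpins in CPM (log axis), with members in chromosomal order, circles and triangles for replicates 1 and 2 and open symbols for 0 counts. Serpinb9b reached 981 CPM in MK1, whereas Serpinb6c was at 48.2 and 66.8 CPM in MK2 and below 0.1 CPM in MK1.

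Per transcript length (TPM), Serpinb9b was the most abundant member in both lines, with mean levels of 796 TPM in MK1 and 400.5 TPM in MK2, ranks 164 and 342 among all gene rows. Serpinb6a (296 TPM) and Serpinb5 (215 TPM) followed in MK1. In MK2, Serpinb5 (288 TPM) and Serpinb6a (264 TPM) had overlapping replicates and could not be ordered. Serpinb9, Serpinb10, Serpinb2 and Serpinb8 lay between 61.7 and 96.8 TPM in MK1 and between 32.6 and 129 TPM in MK2. Serpinb6c moved from rank 13537 in MK1 to rank 1963 in MK2, from a mean of 0.108 to 86.4 TPM.

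Serpinb5, known as maspin, is a non-inhibitory serpin of epithelial cells and a recognised p63 target. Its level was 259.5 and 267 CPM in MK1 and 347 and 393 CPM in MK2. The lines did not overlap, and the increase in MK2 was 0.49 ± 0.11 (SE) in log2, with an edgeR adjusted p = 0.00888. The call was lost without either MK1 library, where the log2 changes of 0.47 and 0.51 had edgeR adjusted p of 0.0874 and 0.0668. Serpinb8, an inhibitor of the proprotein convertase furin, stood at 106 and 99.5 CPM in MK1 and at 50.98 and 56.3 CPM in MK2. It fell by 0.94 ± 0.11 (SE) in log2, with an edgeR adjusted p = 6.79e-04, and was called in all 12 alternatives run. Serpinb5 and Serpinb8, at opposite ends of the chromosome 1 cluster, thus moved in opposite directions.

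Serpinb2, plasminogen activator inhibitor 2, inhibits urokinase and occurs in stressed and differentiating keratinocytes. It measured 79.1 and 41.1 CPM in MK1 and 46.1 and 120.5 CPM in MK2. The replicates of each line spanned a wide range and the lines overlapped, so that the log2 change of 0.47 ± 0.46 (SE) was not called (edgeR adjusted p = 0.416). Leaving out MK2 replicate 1 gave a log2 change of 1.01 with an edgeR adjusted p of 0.0217, and leaving out MK2 replicate 2 gave -0.38. Serpinb10, also called bomapin and known from myeloid precursors, was at 140.1 and 152 CPM in MK1 and at 128 and 106 CPM in MK2. Its lines did not overlap, but the log2 change of -0.32 ± 0.13 (SE) missed the threshold (edgeR adjusted p = 0.0660). It was called under upper quartile scaling (edgeR adjusted p = 0.0367) and without MK2 replicate 1 (edgeR adjusted p = 0.0157). GENCODE transcripts of the neighbouring genes Serpinb2 and Serpinb10 share 10.4% and 6.97% of their 50-base stretches. Their whole coding sequences were 57.5% identical, and their exons in the deposited annotation do not overlap. How reads from the shared stretches were assigned was not tested.

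The other 8 chromosome 1 members were at or near 0. Serpinb13 and the 4 copies Serpinb3a, Serpinb3b, Serpinb3c and Serpinb3d, the mouse counterparts of the squamous cell carcinoma antigens, had 0 counts in all 4 libraries, which allows at most 3 counts, or 0.0987 to 0.119 CPM, in each library. Serpinb7 had 1 and 0 counts in MK1 and 2 and 2 in MK2. Serpinb12 had 2 and 1 counts in MK1 and 0 and 1 in MK2, and Serpinb11 had 1 count in MK2 replicate 2 alone. None of these could be tested.

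Serpinb6c gave the largest change of any member. Serpinb6 proteins are cytosolic inhibitors of trypsin-like proteases and cathepsin G. Serpinb6c had 3 and 1 counts in the MK1 libraries and 1212 and 1895 in MK2, or 0.0987 and 0.0372 CPM against 48.2 and 66.8 CPM. Both MK2 libraries were far above both MK1 libraries, and the ratio of counts per library size was 831-fold (95% exact counting interval 324 to 3051). The fitted log2 change was 9.60 ± 0.36 (SE), called in all 12 alternatives, with an edgeR adjusted p = 8.63e-06 and, beyond 2-fold, 1.17e-05. The fitted value depends on the prior count, since MK1 was at or under 3 counts per library. Of its 50-base stretches, 9.92% occur in another gene, mostly Serpinb6b and Serpinb6d, and of its 100-base stretches 0%.

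The other Serpinb6 copies did not show this increase. Serpinb6a, the most abundant copy, was at 278 and 256 CPM in MK1 and at 218 and 280.3 CPM in MK2, overlapping between the lines (log2 change -0.10 ± 0.14 (SE), edgeR adjusted p = 0.571). In the deposited annotation 52 exon bases of Serpinb6a, 2.75% of its 1888, overlap the antisense gene 1110046J04Rik, and strand was not stated to be used in counting. Serpinb6b was lower, at 5.64 and 6.88 CPM in MK2 against 22.3 and 10.5 CPM in MK1. It fell by 1.39 ± 0.35 (SE) in log2 (edgeR adjusted p = 0.0143). Without MK1 replicate 1, its higher MK1 library, the log2 change was -0.74 and no longer called (edgeR adjusted p = 0.0760). Serpinb6e had 0 and 0 counts in MK1 and 4 and 2 in MK2, and Serpinb6d had 0 in all libraries.

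**Figure D2:**
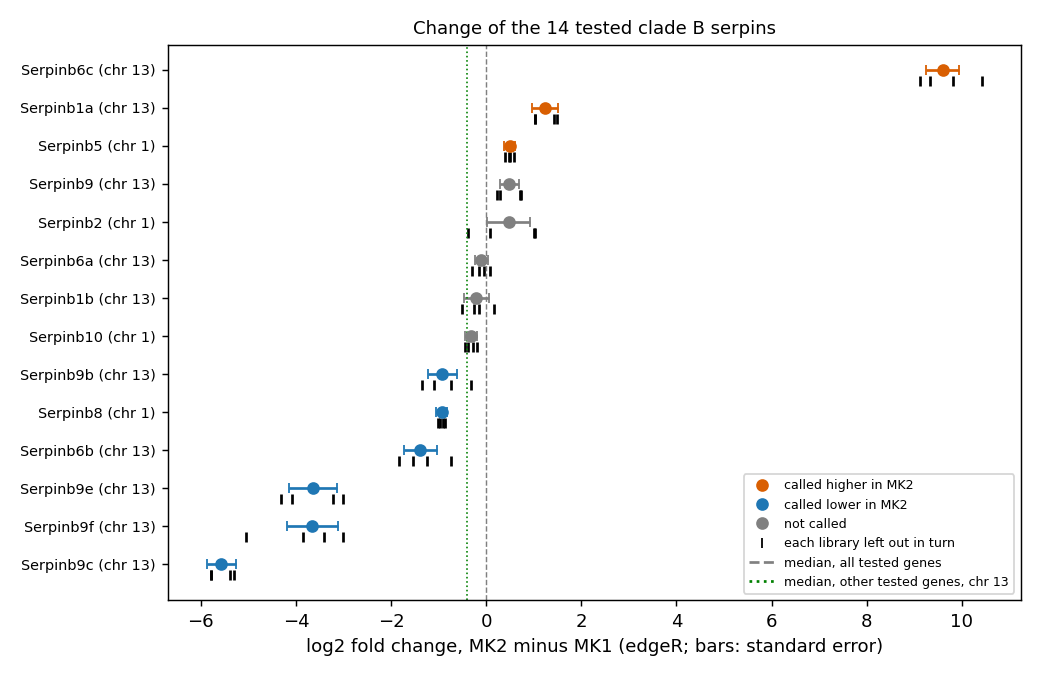
Log2 fold change of the 14 tested members, MK2 minus MK1, with bars for the standard error, ticks for each library left out in turn and lines for the medians of all tested genes (-0.01) and of other chromosome 13 genes (-0.41). Serpinb6c at 9.60 and Serpinb9c at -5.57 lie at the ends.

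Serpinb9c, Serpinb9e and Serpinb9f fell to near 0 in MK2, whereas Serpinb9 itself was not called. Serpinb9 is the intracellular inhibitor of granzyme B, the killing protease of cytotoxic lymphocytes. Serpinb9c fell from 634 and 400 counts (20.9 and 14.9 CPM) in MK1 to 8 and 12 counts (0.318 and 0.423 CPM) in MK2. The counting ratio was 48.3-fold lower (31.1 to 79.5), and the fitted log2 change was -5.57 ± 0.30 (SE), with an edgeR adjusted p = 3.73e-05. Every MK1 library was far above every MK2 library, and the call held in all 12 alternatives.

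Serpinb9e and Serpinb9f behaved alike at lower levels. Serpinb9e had 231 and 97 counts (7.60 and 3.61 CPM) in MK1 and 7 and 17 counts (0.278 and 0.600 CPM) in MK2, a counting ratio 12.8-fold lower (8.44 to 20.2). Serpinb9f had 51 and 33 counts (1.68 and 1.23 CPM) in MK1 and 1 and 5 counts (0.0397 and 0.176 CPM) in MK2, 13.1-fold lower (5.77 to 36.7). The log2 changes were -3.65 ± 0.50 (SE) and -3.66 ± 0.53 (SE), with edgeR adjusted p of 0.00131 and 0.00164, and both calls held in all 12 alternatives. Serpinb9g was not tested, with 26 and 4 counts in MK1 and 0 and 0 in MK2. The lower end of its 95% exact counting interval was 7.14-fold lower, and the MK1 replicates themselves differed 5.74-fold. Serpinb9d, whose coding sequence and upstream window resemble those of Serpinb9e, Serpinb9f and Serpinb9g, had 4 and 2 counts in MK1 and 3 and 1 in MK2.

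These copies cannot be counted apart with certainty. Of 50-base stretches of annotated transcripts, 78.7% of Serpinb9f, 54.8% of Serpinb9g and 28.4% of Serpinb9e occur in another gene, chiefly each other and the predicted gene Gm11397. For Serpinb9c the share was 18.0%, all with the predicted gene Gm11385. Over 100-base stretches the shares were 52.3%, 38.5%, 10.1% and 15.9%. The read length is not given in the sources used here. The file header sets no option for reads with several alignments, which featureCounts leaves out by default where the aligner marks them, so reads from the shared stretches may be missing from the counts of these copies.

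The members that fell did so between lines that also differed in leukocyte transcripts. Beside the B cell markers, the 6 general leukocyte markers found (of 7 listed) summed to 26.3 and 24.7 CPM in MK1 and to 0.358 and 0.141 CPM in MK2, with Tyrobp at 0 in both lines. T and NK cell markers summed to 0.724 and 0.633 CPM in MK1 and to 0.119 and 0 CPM in MK2, with Nkg7 at 0. The 4 macrophage and neutrophil markers found (of 5) summed to 1.02 and 0.931 CPM in MK1 and to 0.358 and 2.26 CPM in MK2. The sum in MK2 replicate 2 was mainly S100a9 (2.01 CPM), whereas Csf1r was at 0.822 and 0.596 CPM in MK1 and at 0.0795 and 0.141 CPM in MK2. The 3 mast cell markers were at 0 in every library. Fibroblast markers (8 of 8 found) summed to 3.95 and 3.35 CPM in MK1 and to 1.03 and 1.41 CPM in MK2, with Dcn and Lum at 0 throughout. Melanocyte markers (6 of 6 found) summed to 6.05 and 5.36 CPM in MK1 and to 3.50 and 3.99 CPM in MK2, with Dct at 0, and endothelial markers (3 of 3 found, mainly Kdr) to 17.8 and 14.9 CPM in MK1 and to 25.4 and 27.4 CPM in MK2, with Cdh5 at 0. The part of these transcripts in the lower levels of Serpinb9c, Serpinb9e, Serpinb9f and Serpinb6b in MK2 was not tested.

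Serpinb9b, the most abundant copy, was at 981 and 481 CPM in MK1 and at 341 and 433 CPM in MK2. The lines did not overlap, but MK1 replicate 1 stood apart, and the log2 change was -0.92 ± 0.31 (SE), with an edgeR adjusted p = 0.0419. That call was lost without MK1 replicate 1 (log2 change -0.32, edgeR adjusted p = 0.260), without MK2 replicate 1 (edgeR adjusted p = 0.0947) and with DESeq2 (adjusted p = 0.146). Serpinb9 went the other way, from 181 and 132 CPM in MK1 to 184 and 256 CPM in MK2, a log2 change of 0.49 ± 0.20 (SE) that was not called (edgeR adjusted p = 0.0798). It was called in 4 of 12 alternatives, among them DESeq2 (adjusted p = 0.0431) and without MK2 replicate 1 (edgeR adjusted p = 0.00968).

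Serpinb1 proteins inhibit neutrophil elastase and related serine proteases, and all 3 copies were low here. Serpinb1a was higher in MK2, at 4.53 and 3.42 CPM against 1.94 and 1.42 CPM in MK1. The lines did not overlap, and the log2 change was 1.24 ± 0.27 (SE), with an edgeR adjusted p = 0.00878, which rose to 0.0745 without MK1 replicate 2. Serpinb1b was at 6.51 and 4.10 CPM in MK1 and at 4.45 and 4.76 CPM in MK2, overlapping and not called (edgeR adjusted p = 0.525). Serpinb1c, with 9 and 3 counts in MK1 and 3 and 9 in MK2, was not tested.

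The copies of a group were also added up. Summed over copies, Serpinb6 was at 301 and 267 CPM in MK1 and at 272 and 354 CPM in MK2 (log2 change 0.14, edgeR adjusted p = 0.452). Serpinb9 summed to 1194 and 634 CPM in MK1 and to 526 and 690 CPM in MK2 (log2 change -0.59, edgeR adjusted p = 0.122). Serpinb1 summed to 8.75 and 5.62 CPM in MK1 and to 9.10 and 8.50 CPM in MK2 (log2 change 0.29, edgeR adjusted p = 0.334). Of these 3 sums, edgeR called 0, with 0 at an unadjusted p under 0.05, and DESeq2 called 0. The Serpinb9 sum was called lower without MK1 replicate 2, with a log2 change of -0.98 (edgeR adjusted p = 0.0216), and with no low-count filter (edgeR adjusted p = 0.0387), whereas without MK1 replicate 1 its log2 change was -0.06 (edgeR adjusted p = 0.833).

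Within the Serpinb6 sum, the share of Serpinb6c was 0.0328% and 0.0140% in MK1 and 17.7% and 18.9% in MK2, with exact binomial 95% intervals of 16.8% to 18.6% and 18.1% to 19.7%. The share of Serpinb6a was 92.6% and 96.1% in MK1 and 80.2% and 79.2% in MK2. Within the Serpinb9 sum, Serpinb9b gave 82.2% and 76.0% in MK1 and 64.8% and 62.8% in MK2. Serpinb9 gave 15.2% and 20.9% in MK1 and 35.1% and 37.1% in MK2. Serpinb9c, Serpinb9e, Serpinb9f and Serpinb9g together were a small part, Serpinb9c being 1.75% and 2.35% in MK1. Within the Serpinb1 sum, Serpinb1a was 22.2% and 25.2% in MK1 and 49.8% and 40.2% in MK2. For these copies except Serpinb9g, the replicates of a line lay nearer to each other than to the other line. The Serpinb9g share was 0.0716% and 0.0235% in MK1 and 0% and 0% in MK2. Serpinb6b was also an exception, with a share of the Serpinb6 sum of 7.41% and 3.92% in MK1 and 2.07% and 1.94% in MK2.

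**Figure D3:**
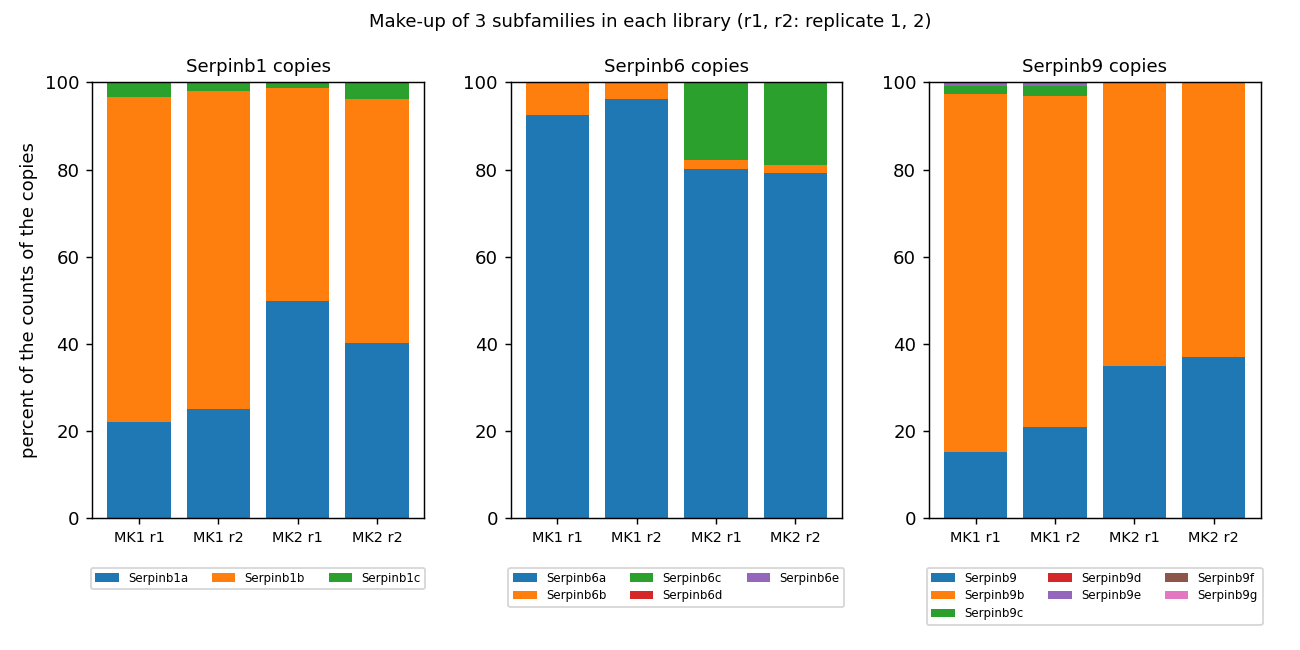
Share of each copy in the summed counts of the Serpinb1, Serpinb6 and Serpinb9 groups, in percent, 1 bar for each library. Serpinb6c fills 17.7% and 18.9% of the Serpinb6 bars in MK2 and under 0.1% in MK1.

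Summed over all 27 genes, clade B serpin RNA was at 2088 and 1466 CPM in MK1 and at 1379 and 1728 CPM in MK2, so the lines overlapped. The chromosome 1 sums were 584 and 559 CPM in MK1 and 572 and 676 CPM in MK2, and the chromosome 13 sums were 1503 and 906 CPM in MK1 and 807 and 1052 CPM in MK2. Both sets of sums overlapped as well.

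Replicates of 1 line differed in these genes. In MK1, 12 of the 14 tested members were lower in replicate 2 than in replicate 1 (median log2 difference -0.40 on CPM + 0.5), against 50% of all tested genes (median 0). In MK2, 12 of 14 were higher in replicate 2 (median 0.30), against 49.4% of all tested genes (median 0). Among members at 1 CPM or more in both replicates of a line, the widest gap was that of Serpinb2, 2.62-fold in MK2, and it was 1.93-fold in MK1. In MK1 the gaps of Serpinb6b, Serpinb9e and Serpinb9b were 2.13-fold, 2.10-fold and 2.04-fold. For each of these 5 gaps, at most 0.633% of tested genes had one as wide in the same line. In MK1 replicates 1 and 2, the leukocyte marker sum was 26.3 and 24.7 CPM, Cd79a was at 2.93 and 3.13 CPM, Cd79b at 2.34 and 2.64 CPM and Ms4a1 at 1.61 and 1.23 CPM, and their part in these gaps was not tested.

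**Figure D4:**
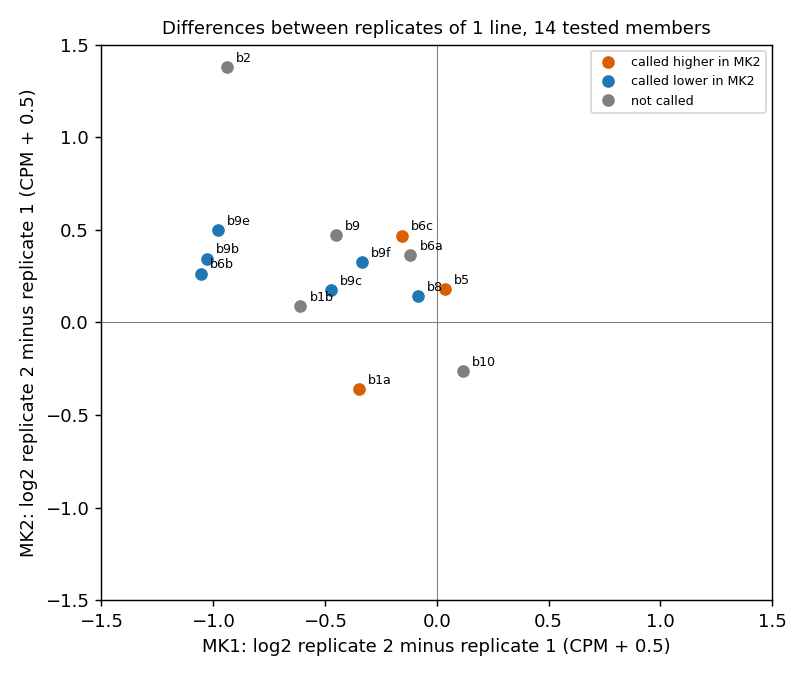
Log2 difference between replicate 2 and replicate 1 of MK1 (horizontal axis) and of MK2 (vertical axis) for the 14 tested members, on CPM + 0.5. Most points lie to the left of 0 and above 0, as 12 of 14 were lower in MK1 replicate 2 and 12 of 14 higher in MK2 replicate 2.

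Both gene clusters are compact. The chromosome 1 members lie within 748 kb, with no other gene row between them, and the chromosome 13 members within 1161 kb, with 2 other rows, Nqo2 and 1110046J04Rik. The 4 tested chromosome 1 members had 1 gene higher and 1 lower (50% called), with a median log2 change of 0.07. Of the other 706 tested genes of that chromosome 52.3% were called, with a median of 0.02. The 10 tested chromosome 13 members had 2 higher and 5 lower (70% called), with a median of -0.56. That median ranged from -1.35 without MK1 replicate 2 to -0.18 without MK1 replicate 1. The other 451 tested chromosome 13 genes also leaned down, with 36 higher and 219 lower (56.5% called). Their median was -0.41, beside -0.01 over all genes.

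Nearest neighbours were taken as the non-member rows within a cluster and the 10 on each side. On chromosome 1, 13 were tested, with 8 higher and 1 lower (69.2% called, beside 54.6% of all tested genes, median 0.37). The apoptosis inhibitor gene Bcl2 had a log2 change of 1.41 ± 0.18 (SE) with an edgeR adjusted p = 9.11e-04, the transcription factor gene Tfcp2l1 fell by 1.46 ± 0.30 (SE), and Mki67ip, the most abundant neighbour per length, had a log2 change of 0.45 ± 0.11 (SE). On chromosome 13, 15 were tested, with 2 higher and 4 lower (40% called, median -0.17). The beta-tubulin gene Tubb2b, beyond Serpinb6a, had a log2 change of 5.37 ± 0.69 (SE), and the forkhead gene Foxq1, on the other side, fell by 4.18 ± 0.36 (SE). Ripk1 and Wrnip1, the rows next to the cluster ends, were not called (log2 changes -0.17 and -0.17). Nqo2, which lies within the span of Serpinb6a on the opposite strand, fell by 1.02 ± 0.18 (SE).

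**Figure D5:**
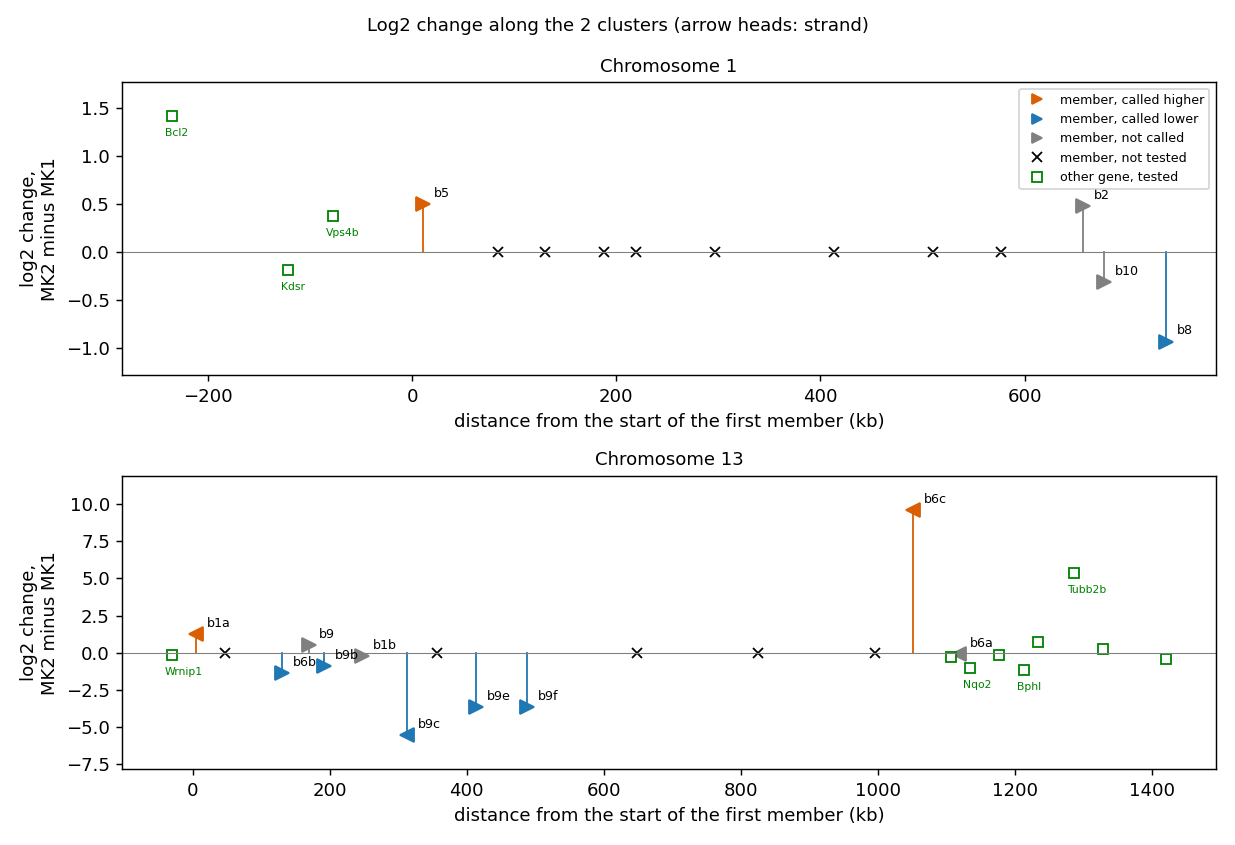
Log2 change, MK2 minus MK1, along the chromosome 1 and chromosome 13 clusters, by distance in kb from the first member, with arrow heads for strand, crosses for untested members and squares for other tested genes. Serpinb9c, Serpinb9e and Serpinb9f (-5.57, -3.65 and -3.66) lie in the middle of the chromosome 13 cluster, with the untested Serpinb9d between Serpinb9c and Serpinb9e, and Serpinb6c (9.60) lies near its far end.

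Serpins of other clades, mostly secreted, were few here. Of 36 rows 9 were tested, with 2 higher and 3 lower (55.6% called, beside 54.6% of all tested genes, median -0.32). Serpinh1, the collagen chaperone HSP47 and the most abundant of them per length, fell by 0.93 ± 0.14 (SE) in log2, from 427 ± 15.8 (SD, n = 2) to 225 ± 38.6 CPM (edgeR adjusted p = 0.00183). Serpina3h and Serpina3i rose, with log2 changes of 3.17 ± 0.57 (SE) and 2.94 ± 0.70 (SE), and Serpina3m fell (edgeR adjusted p = 0.00357), from 1.64 ± 0.465 (SD, n = 2) to 0.351 ± 0.103 CPM.

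Among tested proteases, and related genes, of the kinds that clade B serpins bind, more were lower than higher in MK2. Of 39 listed genes 23 were tested, with 3 higher and 13 lower (69.6% called, median -0.76), and 1 higher and 9 lower beyond 2-fold. Over all tested genes 54.6% were called, 25.9% higher and 28.6% lower, and beyond 2-fold 3.25% were higher and 10.1% lower. Among the untested genes, 8 had 0 counts in all libraries. They included Elane, Ctsg and Gzmb, the genes of neutrophil elastase, cathepsin G and granzyme B. Htra1, a secreted serine protease and the most abundant per length, fell by 1.49 ± 0.19 (SE) in log2, from 2823 ± 233 (SD, n = 2) to 1007 ± 264 CPM (edgeR adjusted p = 8.90e-04). The lysosomal cathepsin genes Ctsz, Ctso and Ctsh had log2 changes of -6.07 ± 0.24 (SE), -3.60 ± 0.24 (SE) and -3.58 ± 0.38 (SE), and the kallikrein gene Klk8 fell by 3.07 ± 0.18 (SE).

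Keratinocyte state genes give the setting. Of 14 basal genes, all tested, 2 were higher and 5 lower (50% called, median -0.12). Krt14, the basal keratin and the most abundant of them, was not called (log2 change -0.06 ± 0.12 (SE)). Of the adhesion genes among them, Cdh1 and Col17a1 had log2 changes of -1.14 ± 0.14 (SE) and -1.06 ± 0.12 (SE), and Itgb1 and Itga6 of 1.03 ± 0.11 (SE) and 0.83 ± 0.10 (SE). Of 18 differentiation genes 13 were tested, with 9 higher and 1 lower (76.9% called, median 1.61). Over all tested genes 54.6% were called, 25.9% higher and 28.6% lower. Krtdap, a small secreted protein of suprabasal keratinocytes, had a log2 change of 10.27 ± 0.40 (SE), the lipid transporter gene Abca12 of 4.96 ± 0.16 (SE) and Ivl, the cornified envelope protein involucrin, of 2.46 ± 0.20 (SE), whereas Sprr1a fell by 2.29 ± 0.69 (SE). Without MK1 replicate 1, 5 of these differentiation genes were called, all 5 higher. Several differentiation genes stayed low in both lines. Krt1, Cnfn, Dsc1, Klk7 and Tgm3 were too low to test, with 0 Krt1 counts in all 4 libraries. Mean levels in MK1 and MK2 were 2.24 and 4.07 CPM for Krt10 and 0.0372 and 0.854 CPM for Lor. The clade B members Serpinb3 copies, Serpinb7, Serpinb12 and Serpinb13, known from stratified epithelia, stayed at or near 0 in both lines. Serpinb2, which occurs in differentiating keratinocytes, was expressed in both, with mean levels of 60.1 CPM in MK1 and 83.3 CPM in MK2.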

How the data were processed

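RNA of 2 lines with 2 replicates each was sequenced from 1 ug of total RNA with a TruSeq kit, per the labels' protocols. The deposited table holds counts of reads per gene, left without normalisation by the authors. Per the file headers, featureCounts 1.4.6-p4 counted TopHat alignments over the exons of UCSC mm10 genes, with no option for strand, pairs or multiple alignments. The submitters' processing notes name DESeq2 1.10.1, Bowtie2 2.2.6, TopHat2 2.0.13 and a second featureCounts version, 1.5.0. The header names the second line MKU and the columns name it MK2. Columns were matched by the sample titles.

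All 23420 rows (6644 with 0 counts throughout) entered edgeR 4.0.16 in R 4.3.3 (limma 3.58.1): filterByExpr with a minimum count of 10, TMM scaling, the quasi-likelihood F test, two-sided, and glmTreat at a log2 fold change of 1. DESeq2 1.42.0 was an alternative. Single-library differences in one line used log2(CPM + 0.5). Intervals on ratios and shares are exact at 95% and, like floors of 3 counts, cover counting error only. TPM used deposited gene lengths. The procedure was tested on simulated data. Replicates differed beyond counting noise (median chi-square per gene 2.88 in MK1 and 4.28 in MK2).

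Every member is accounted for. From each list and the neighbours, up to 4 called genes at 1 CPM or more with the largest changes, and the most abundant by TPM, are named, apart from genes not reported here. The neighbours Nqo2, Ripk1 and Wrnip1 were named after their values were seen. So were the differentiation genes Krt1, Cnfn, Dsc1, Klk7, Tgm3, Krt10 and Lor and the protease genes Elane, Ctsg and Gzmb. The members and lists were chosen with earlier results of these data known. Alternatives covered scaling, filters, DESeq2, each library left out, a replicate block and copies summed.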

Additional observations from a re-analysis of the deposited data

How the results depend on the processing

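Over 12 alternatives for each member and copy sum, 179 values kept direction and side of the threshold, 12 passed it newly, 8 no longer passed and 5 changed sign. Serpinb8, Serpinb9c, Serpinb9e, Serpinb9f and Serpinb6c were called in all 12 alternatives. The sign changed, without a call, for Serpinb1b without MK1 replicate 1 (0.17; leaving out each library gave -0.50 to 0.17), Serpinb2 without MK2 replicate 2 (-0.38 to 1.02 over the libraries), Serpinb6a without MK2 replicate 1 (-0.29 to 0.07), the Serpinb1 sum without MK1 replicate 2 (0 to 0.64) and the Serpinb6 sum without MK2 replicate 2 (-0.06 to 0.32). Members called ranged from 6 to 12 (9 as reported), those beyond 2-fold from 3 to 6 (4 as reported), those on chromosome 13 from 5 to 9 (7 as reported) and those on chromosome 1 from 1 to 4 (2 as reported). With libraries left out, genes called ranged from 3716 to 6847 (6810 as reported). With copies summed into 1 row each, 2 of 7 rows were called, against 9 of 14 as reported. With no low-count filter the chromosome 1 median was 0.47, over 7 members in place of 4, and 1 copy sum was called. Leaving out libraries gave chromosome 1 medians down to -0.29, chromosome 13 medians from -1.35 to -0.18, from 0 to 1 copy sums and from 9 to 18 called neighbours. Differentiation genes called fell to 5 without MK1 replicate 1, and other serpins to 3 without MK1 replicate 2. The replicate numbers did not pair the libraries: replicate 2 minus replicate 1 correlated at -0.159 between the lines over genes. With the replicate number as a block, 8 members were called, Serpinb9b (-0.84, edgeR adjusted p = 0.0877) not among them. With the numbers crossed, added after seeing the data, 12 members were called, 4 of them on chromosome 1, and 1 copy sum. The cause of these shifts was not tested. Members with under 10 counts in every library were too shallow to test.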
